A study of Mus musculus with 287 samples.

Results

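The nuclear-encoded respiratory chain genes were taken from the exon count table by symbol: those that begin with Ndufa, Ndufb, Ndufc, Ndufs, Ndufv, Uqcr, Cox4 to Cox8 or Atp5. Of the IDs found, 9 whose symbol contains -ps were dropped, and 94 of the 55359 in the table were left. They carry 93 symbols, since Atp5o has 2 IDs, 1 of them without an exon count. Levels were read in the 87% of labelled cells in which at least 1000 genes had an exon count.

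The inner mitochondrial membrane carries the respiratory chain, in which complexes I, III and IV pass electrons from NADH and ubiquinol to oxygen and pump protons, and ATP synthase uses the proton gradient to make ATP. Most subunits are encoded in the nucleus, made on cytosolic ribosomes and imported, while a small set of core subunits is transcribed from mitochondrial DNA (the mt- genes). The complexes therefore need both gene sets, and neural progenitors and neurons are known to differ in their reliance on glycolysis and respiration.

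The cells came from mouse cerebral organoids grown from embryonic stem cells of genotype MADM-11GT/TG;Emx1-CreER+/-, which all groups share. 4-hydroxytamoxifen at 60 nM was given on D13 and cells were drawn by pipette on D20. CreER is driven from Emx1, a gene of the dorsal forebrain, so labelled clones start from cells that use this gene. Recombination in MADM makes green (G) or red (R) daughter cells, and each library is 1 cell of 1 clone with 1 colour, prepared by Smart-seq3. The clone type is given as SN or N with no further meaning. Of the cells used, 53% were of SN and 47% of N clones, and 61.9% were green and 38.1% (94 cells) red. Which clones share an organoid or a culture is not given, so the p-values below measure only the spread between clones.

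The cells held 6171 to 13040432 exon counts, with a median of 1517431. The plate given in the labels (1, 2 or 3) held 90, 77 and 80 of the cells, with clone 45, whose cells lie on plates 2 and 3, put on plate 3. Of the neuronal markers, Stmn2 was counted in 96.8% and Tubb3 in 96.4% of cells. The 10 radial glia markers ran from Fabp7 in 95.5% and Dbi in 93.5% down to Nes in 47.8%, Hes5 in 45.3% and Hes1 in 21.9% of cells. An ID without a symbol, ENSMUSG00000119584, took 16.6% of all exon counts. Levels per cell are therefore given as nuclear CPM: counts per 1000000 exon counts (CPM), leaving out that ID and the mt- genes. Of the 13 mitochondrial mRNAs, 7 carried the signal: mt-Co1 was counted in 97.2% of cells, while mt-Co2 had counts in 3, mt-Atp6 in 4 and mt-Co3 in 5 cells, and mt-Atp8, mt-Nd3 and mt-Nd4l had none.

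Together the respiratory chain genes made up a median of 18833 nuclear CPM per cell, with a range of 2622 to 52247. A cell had counts in a median of 65 of them (6 to 88). Their counts were spread over all 4 complexes. The 32 accessory subunits of complex I held 31.4% of them, the 17 genes of ATP synthase 27.7%, the 21 of complex IV 25.5%, the 8 of complex III 9.38%, the 7 core subunits of complex I 3.79% and the 8 complex I assembly factors 2.13%. Atp5s, placed in no complex here, held 0.032%. Ndufa4 and Ndufa4l2 were classed with complex IV, where the Ndufa4 protein is found.

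Complex I takes electrons from NADH. Among its core subunits, which carry the flavin and iron-sulfur centres, Ndufv2 had the highest median level at 93.17 nuclear CPM. Ndufs1, the largest iron-sulfur subunit, was lowest at 1.976 and had counts in 55.5% of cells. Per kilobase of transcript, Ndufv2 stood at 54.9, Ndufs3 at 47.3, Ndufs7 at 46.74 and Ndufs1 at 0.7629 nuclear CPM per kb. This scale takes counts to rise with transcript length. It is not given whether molecular identifiers served, so how far that holds is not known. If it does not hold, values per kb are too high for short transcripts, and orders per kb depend on the scaling. Accessory subunits reached higher levels per kb, with Ndufb7 at 485.4 and Ndufb6 at 445.2, both in the membrane arm. Ndufa11b, annotated as a processed pseudogene, had a median of 0. The assembly factors were sparse: Ndufaf2 was counted in 50.2% of cells, with a median of 0.8376 nuclear CPM, and the median of the other 7 was 0.

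In complex III, which passes electrons from ubiquinol to cytochrome c, levels differed between small and large subunits. Uqcr11, a small supernumerary subunit, stood at 987.9 nuclear CPM per kb and Uqcrh, the hinge protein, at 631.8. Larger subunits were lower: Uqcrc1 at 34.57, the Rieske iron-sulfur protein Uqcrfs1 at 32.08 and Uqcrc2 at 22.03. As medians per cell without scaling for length, Uqcr11 had 439.6, Uqcrh 345.6 and Uqcrc2 41.76 nuclear CPM.

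Complex IV reduces oxygen and has tissue isoforms of several subunits. Cox4i1, the general form of its largest nuclear subunit, had a median of 602.5 nuclear CPM and counts in 91.9% of cells, and Cox6c had 488.2. Per kb the order was Cox6c at 970.6, Cox4i1 at 808.7, Cox6a1 at 769.9 and Cox7c at 670.9. In ATP synthase the catalytic beta subunit Atp5b had a median of 661.9 nuclear CPM, with counts in 98% of cells. The alpha subunit Atp5a1 had 528.2 and the gamma subunit Atp5c1, which forms the rotating stalk, 468.1. Per kb the order was another: Atp5h at 762.8, Atp5e at 599.5, Atp5j at 582.5, Atp5g3 at 457.1, Atp5c1 at 401.5, Atp5b at 345.5 and, lower, Atp5a1 at 213.8. Atp5l, a small membrane subunit, had the lowest level of the ATP synthase genes with a median above 0, at 10.05 nuclear CPM per kb. Neighbours in this order overlapped widely in their values over cells, and the order is a description. In the plot of levels by complex the assembly factors form a row at the floor while the other classes climb over more than a decade.

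**Figure D1:**
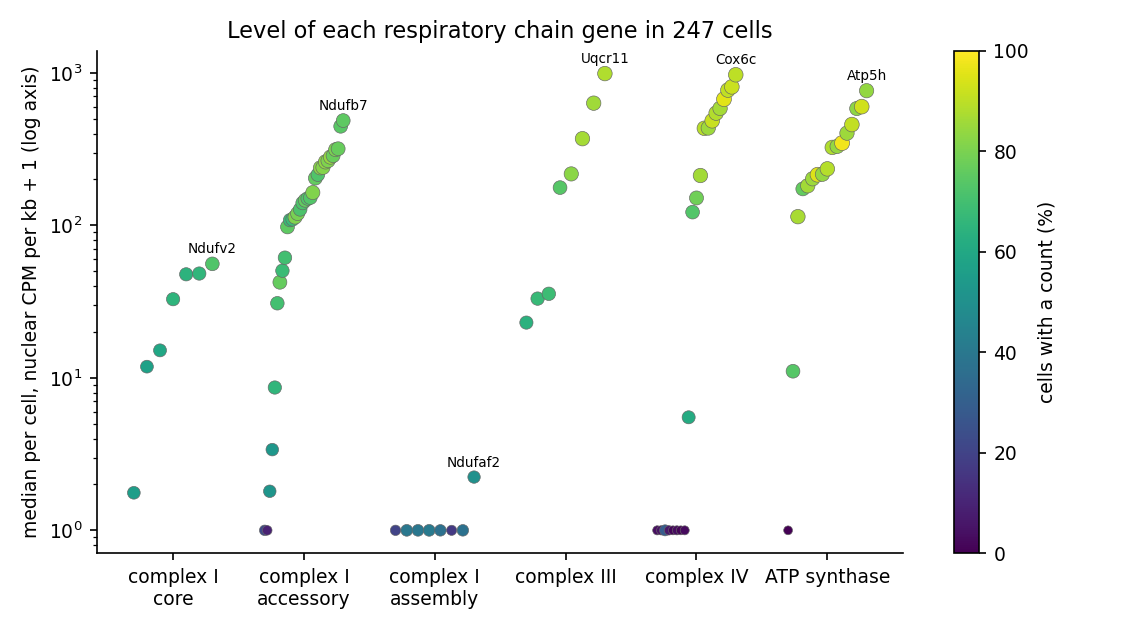
Median level per cell of 93 respiratory chain IDs over the cells used, in nuclear CPM per kb of transcript plus 1 on a log axis, by complex; colour gives the percent of cells with a count. Uqcr11 (987.9) and Cox6c (970.6) are at the top, and the complex I assembly factors lie at or near the floor.

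Many of these genes have near copies in the genome. Of the 94 IDs, 25 shared over 20% of their transcript's 50-base stretches with other annotated genes, mostly processed copies. The share was 100% for Atp5g2, 84.8% for Atp5l, 66.6% for Atp5h, 66% for Atp5g1 and 53% for Cox7c, and 0% for Atp5g3, Uqcr10, Uqcrq, Cox6b1, Cox7a2 and Cox8a. How such reads were counted is not given in the sources used here, so the levels of the first group are uncertain. Among the IDs kept by the rule, Cox6c2, Ndufa11b, Ndufb4c and Ndufs6b are annotated as processed pseudogenes. Among those dropped, Ndufb1-ps, with 24385 counts, is listed as the protein-coding gene Ndufb1 by RefSeq.

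The general isoforms dominated the families of complex IV subunits. Cox4i1 gave 99.8% of its family's exon counts. Cox4i2, the form induced by low oxygen in some tissues, gave 0.152% in 9 cells, and 92.2% of its reads were intronic. Cox6a1 gave 99.8%, against 0.198% in 11 cells for Cox6a2, the heart and muscle form. The cell with most Cox6a2, at 118.8 nuclear CPM, had 964.5 nuclear CPM of the 7 muscle markers, where the median cell had 0.1431. Cox7a2 gave 63.9% and Cox7a2l, which takes part in joining complexes III and IV, 35.1% of the Cox7a counts. Cox7a1, another heart and muscle form, gave 1.02%, and 66.3% of its counts lay in 1 red cell of N clone 24 on plate 2. That cell had 2445 Cox7a1 counts (1107 nuclear CPM) and no count in the 7 muscle or 5 mesenchyme markers, and it was also the cell with most Ndufa4l2, at 102.8 nuclear CPM. Cox6b2, known as the testis form, was the exception in reach: it gave 5.59% of its family and was counted in 72 cells of 42 clones, against 94.4% for Cox6b1. Cox8a gave 99.9%, with Cox8b in 6 cells and Cox8c in 2, and Cox7b gave nearly all of its family, with Cox7b2 in 3 cells. Of the 3 genes for the identical c-ring subunit of ATP synthase, Atp5g3 gave 61.5%, Atp5g1 24.3% and Atp5g2 14.2%. Their shares of stretches in common with other genes (0%, 66% and 100%) run the other way, so this order is uncertain. Ndufa4 gave 99.6% against 0.359% for Ndufa4l2, counted in 8 cells.

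Promoters of respiratory chain genes are known for sites of NRF1, of ETS factors such as GABP, and of YY1. RefSeq's table of promoters on GRCm38.p6, 250 bases before to 50 after the start, held 73 of the 94 genes among 27025. The letters GCGCATGC (an NRF1 core) stood on either strand in 15.1% of the 73 and 3.05% of all promoters. CCGGAAG (an ETS core) stood in 21.9% and 9.93%, AAGATGGC (a YY1 core) in 15.1% and 3.19%, and at least 1 of the 3 in 43.8% and 14.9%. Among 68 promoters of cytosolic ribosomal protein genes the shares were 4.41%, 38.2% and 8.82%. Uqcr11 and Cox6a1 are printed because they hold both of the first motifs and are among the genes with the highest levels per kb, Atp5j because it holds the ETS and YY1 cores, and Cox7a1 as an isoform seen in 16 cells with none of the 3. Motifs are in capitals, on either strand, and overlapping matches are joined. The windows are chr10:80406772-80407071 (minus strand) for Uqcr11, chr5:115348909-115349208 (minus) for Cox6a1, chr16:84834927-84835226 (minus) for Atp5j and chr7:30183921-30184220 (plus) for Cox7a1. A match is a description of these letters, not a bound site.
Uqcr11: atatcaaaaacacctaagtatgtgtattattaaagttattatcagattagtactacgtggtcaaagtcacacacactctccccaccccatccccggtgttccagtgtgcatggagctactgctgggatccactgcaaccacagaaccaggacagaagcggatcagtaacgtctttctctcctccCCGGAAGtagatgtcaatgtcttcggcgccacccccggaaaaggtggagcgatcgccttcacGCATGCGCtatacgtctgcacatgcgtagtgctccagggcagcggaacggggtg
Cox6a1: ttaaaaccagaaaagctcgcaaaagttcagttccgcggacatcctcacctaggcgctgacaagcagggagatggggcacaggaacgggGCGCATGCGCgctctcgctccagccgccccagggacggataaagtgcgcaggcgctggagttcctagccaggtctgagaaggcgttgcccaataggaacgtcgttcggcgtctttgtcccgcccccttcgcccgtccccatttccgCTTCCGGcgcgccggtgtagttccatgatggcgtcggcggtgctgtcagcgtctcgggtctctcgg
Atp5j: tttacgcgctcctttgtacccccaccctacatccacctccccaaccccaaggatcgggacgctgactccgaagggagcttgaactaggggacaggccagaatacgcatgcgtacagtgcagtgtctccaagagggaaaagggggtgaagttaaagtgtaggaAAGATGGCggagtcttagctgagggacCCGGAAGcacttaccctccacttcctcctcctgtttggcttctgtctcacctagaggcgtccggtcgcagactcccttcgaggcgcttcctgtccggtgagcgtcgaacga
Cox7a1: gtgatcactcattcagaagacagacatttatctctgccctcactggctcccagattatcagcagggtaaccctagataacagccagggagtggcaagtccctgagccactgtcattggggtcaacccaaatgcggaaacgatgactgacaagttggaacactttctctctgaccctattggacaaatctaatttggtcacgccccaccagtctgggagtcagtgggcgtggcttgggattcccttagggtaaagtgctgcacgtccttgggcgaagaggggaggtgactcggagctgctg

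No respiratory chain gene passed the test between SN and N clones. Their summed level had a median of 20600 nuclear CPM in the 42 SN clones with at least 2 cells (5902 to 31686) and 17955 in the 20 N clones (3323 to 28046), so the groups overlapped over most of their range. Counts were summed per clone and tested with edgeR's quasi-likelihood method, with plate as a covariate, over 11914 genes. Of the 83 respiratory chain genes that passed the filter on low counts, 0 were called at an adjusted p under 0.05, where 0% of all genes were called. At an unadjusted p under 0.05 it was 0 of 83, against 2.06% of all genes, and a Wald test in DESeq2 called 0. The SE of the log2 difference ran from 0.183 (Atp5b) to 1.155 (Ndufaf1) among the 83. Small differences could therefore go uncalled, and for genes with a large SE also large ones. The median log2 difference, SN minus N, was 0.04 for the 83 genes and -0.11 for all genes, and 47 of the 83 lay above 0.

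The smallest p belonged to Ndufb5, an accessory subunit of complex I. Its level was 20.55 to 772.6 normalized CPM in SN clones (median 137.4) and 0 to 188.4 in N clones (median 114.6). The log2 difference was 0.51 (SE 0.29, edgeR adjusted p 1), and the clones of both types overlapped. Next above 0 were Ndufs1 at 0.73 (SE 0.56) and the assembly factor Ndufaf7 at 1.00 (SE 0.77). Ndufaf7 had a median of 17.77 in SN and 14.11 in N clones, and 1 SN clone reached 692.6. Below 0 the smallest p values were those of Atp5d, the delta subunit of ATP synthase, at -0.32 (SE 0.26), Atp5c1 at -0.24 (SE 0.21) and the assembly factor Ndufaf5 at -0.78 (SE 0.72). Atp5c1 had a median of 452.1 normalized CPM in N and 345 in SN clones. All 6 had an adjusted p of 1.

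The 7 genes with the highest medians per cell, not scaled for length, had log2 differences from -0.24 (Atp5c1) to 0.23 (Uqcr11, SE 0.24), and Atp5a1 stood at 0.19 (SE 0.22). Atp5b had a median of 527.5 normalized CPM in SN and 544.1 in N clones (log2 difference -0.01, SE 0.18). Cox4i1 had 595.8 and 505.9 (0.04, SE 0.21), and Cox6a1 414.8 and 420.9 (0.08, SE 0.25). By complex, the median log2 difference was 0.18 for the complex I core, -0.01 for its accessory subunits, 0.05 for its assembly factors, 0.01 for complex III, 0.07 for complex IV and 0 for ATP synthase.

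Other genes of respiration gave 0 calls as well: complex II (4 tested, median log2 difference -0.43), cytochrome c and the carriers (7, 0.31), assembly factors outside the symbol rule (35, -0.28), the TCA cycle (15, 0.18), regulators of mitochondrial biogenesis (14, -0.06) and the mitochondrial ribosome (77, -0.08). The 7 tested mitochondrial mRNAs all lay above 0 (median 0.29) and none was called. The 10 radial glia markers also lay above 0, with a median of 0.53, and the 10 neuronal markers below 0, with a median of -0.2. Some markers of other cell types lay further below 0: all 5 of mesenchyme (median -2.05, 3 with an unadjusted p under 0.05), the 2 muscle markers tested of 7 (-2.23) and the 1 choroid plexus marker tested of 3 (-4.44). Summed per clone, mesenchyme markers had a median of 14.12 nuclear CPM in SN clones (0 to 514.5) and 60.19 in N clones (0 to 1683), and muscle markers 9.302 (0 to 1846) and 29.92 (0.1398 to 649.2). Choroid plexus markers had a median of 0 in SN clones (0 to 732.2, with 24 at 0) and 20.38 in N clones (0 to 1018, with 5 at 0). The lists of intermediate progenitors, cell cycle, Cajal-Retzius and GABAergic neurons, the oligodendrocyte lineage, and endothelium and microglia had medians from -0.31 to 0.07. No marker of any of these lists was called, and their part in the values of the respiratory chain genes was not tested.

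Within plates the clone types were also near each other: medians of SN and N clones were 21941 and 19945 nuclear CPM on plate 1, 24395 and 25034 on plate 2, and 12582 and 11531 on plate 3. For clones of size 4 to 6, sizes that both types have, the medians were 21594 for 19 SN and 13301 for 10 N clones. This wider gap came with an unequal spread over plates, since 6 of the 10 N but 6 of the 19 SN clones lay on plate 3. On plate 3 itself they were 12963 for 6 SN and 10443 for 6 N clones. On plate 2 they were 23173 for 5 SN and 23570 for 2 N clones (19095 and 28046). On plate 1 they were 22149 for 8 SN and 17013 for 2 N clones (14081 and 19945).

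No respiratory chain gene passed the test between green and red cells of the same clones. In the 45 clones with both colours, 31 SN and 14 N, the sum per clone was 5864 to 40521 nuclear CPM in green cells (median 18643) and 8038 to 36630 in red cells (median 18885). The log2 ratio of green to red had a median of -0.04, and green was higher in 22 of the 45 clones. Of 78 respiratory chain genes tested within clones, 0 were called, where 0% of the 7437 genes tested were called. At an unadjusted p under 0.05 it was 0 of 78 against 1.64% of all genes. The SE of the log2 difference ran from 0.272 (Atp5b) to 1.567 (Ndufaf4) among the 78. Small differences could therefore go uncalled, and for genes with a large SE also large ones. The median log2 difference, green minus red, was 0.02 for these genes and 0.18 for all genes, and 42 lay above 0.

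**Figure D2:**
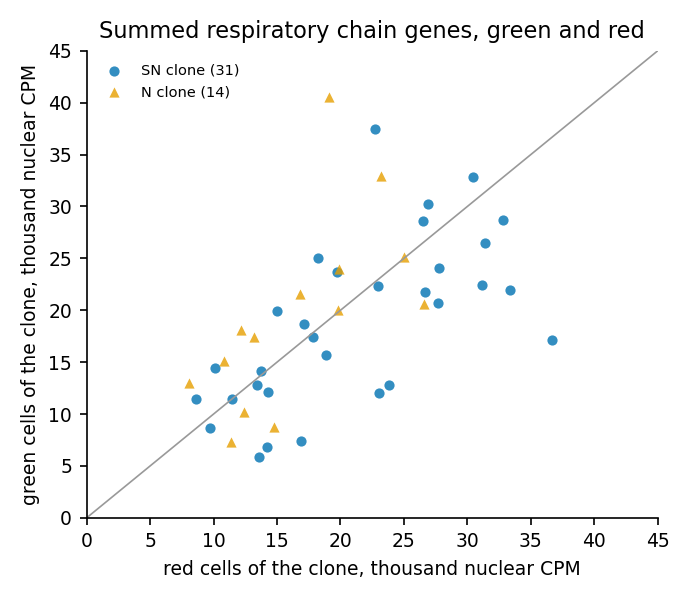
Summed respiratory chain level of the green (vertical axis) and red (horizontal axis) cells of 45 clones, in units of 1000 nuclear CPM; the line marks equality, circles are SN and triangles N clones. Points lie on both sides of the line, 22 of 45 above it.

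The smallest p among genes above 0 was that of Ndufs4, an accessory subunit of complex I, with a median of 115.7 normalized CPM in green and 63.95 in red cells. Its log2 difference was 0.98 (SE 0.69, edgeR adjusted p 1) and green was higher in 31 of 45 clones. Ndufs8, an iron-sulfur core subunit, followed at 1.37 (SE 1.00) and Ndufb8 at 0.63 (SE 0.48). Below 0 stood Ndufa8 at -0.82 (SE 0.63), with green higher in 17 of 45 clones, the assembly factor Ndufaf8 at -1.59 (SE 1.41) and Atp5h, a stalk subunit of ATP synthase, at -0.31 (SE 0.40). All had an adjusted p of 1.

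Mitochondrial mRNA gave other values in the same clones. Its log2 ratio of green to red had a median of -0.44 and green was higher in 14 of 45 clones, while that of mitochondrial rRNA was -0.48 with green higher in 12 of 45. The 7 mitochondrial mRNAs tested all lay below 0 and none was called; mt-Rnr2 stood at -0.51 (SE 0.14, edgeR adjusted p 1). For the respiratory chain sum the median log2 ratio was -0.17 in SN clones, with green higher in 12 of 31, and 0.31 in N clones, with green higher in 10 of 14. The test of the difference between clone types gave 0 calls among the 78 genes, where 0% of all genes were called and 3.58% had an unadjusted p under 0.05, against 0 of the 78. Its smallest p values above 0 were those of Ndufaf8 (4.56), Ndufs6 (1.57) and Ndufaf2 (2.51), and below 0 those of Atp5l (-1.73), Cox7a2 (-0.83) and Cox7c (-0.78), as differences of log2 differences. All had an adjusted p of 0.999.

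The summed level of respiratory chain genes was close to uncorrelated with that of mitochondrial mRNA from cell to cell. Mitochondrial mRNA ranged more widely, from 7.37 to 114790 nuclear CPM (median 8556). Across all cells used, on a log2 scale, Pearson's r was 0.016 and Spearman's rho -0.024. For deviations from the clone mean, without 6 cells alone in their clone, they were 0.052 and 0.081. Within plates r was 0.146 (90 cells), 0.023 (77) and -0.008 (80). In green cells it was 0.055 and in red cells -0.188. After cells were thinned to 100000 nuclear counts each, without 26 shallower cells, it was -0.01. Cells of a clone share their origin, and both measures share a denominator and a library, so these values are descriptions.

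The same sum went with the sum of cytosolic ribosomal protein genes, at r = 0.802 across cells and 0.721 for deviations from the clone mean, and at 0.633, 0.758 and 0.727 within the plates. With the mitochondrial ribosome r was 0.594, with glycolysis 0.353, with complex II 0.149, with the TCA cycle 0.101 and with the biogenesis regulators -0.135. It was -0.535 with the intronic share of a cell's counts and -0.303 with the neuron score, the mean of 10 markers on a log2 scale. With the radial glia score, made in the same way, it was -0.005, and with the number of detected genes -0.122. For deviations from the clone mean, r was -0.312 with the neuron score, -0.246 with the radial glia score and -0.349 with detected genes. The negative value within clones was thus not particular to neuronal markers. Mitochondrial mRNA had r = 0.817 with mitochondrial rRNA. The paired plots show a cloud with no slope for mitochondrial mRNA and a band for ribosomal proteins.

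**Figure D3:**
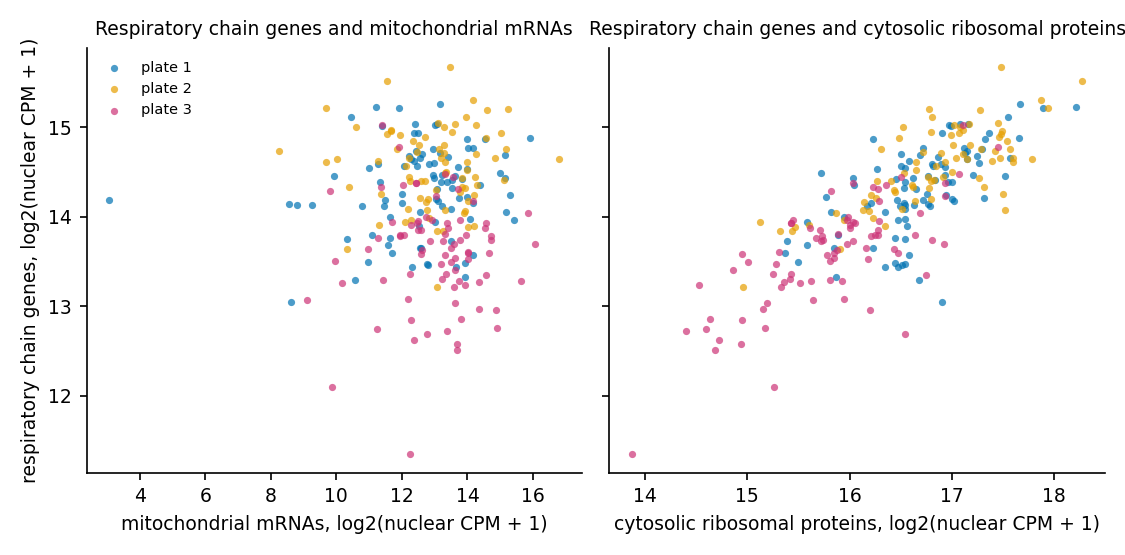
Summed respiratory chain level per cell (vertical axis) against mitochondrial mRNAs (left) and cytosolic ribosomal protein genes (right), each as log2 of nuclear CPM plus 1, for single cells coloured by plate. The correlation is 0.016 on the left and 0.802 on the right, and plate 3 cells lie low in both.

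Single genes gave the same picture. Of the 75 with counts in most cells, Spearman's rho with mitochondrial mRNA ran from -0.179 to 0.14, with a median of -0.016. The same coefficient with the sum of the other respiratory chain genes ran from -0.061 to 0.589, with a median of 0.289, and was highest for Atp5e, the epsilon subunit of ATP synthase (0.589), Cox6c (0.584) and Cox7c (0.576). With the sum of cytosolic ribosomal protein genes the coefficient ran from -0.127 to 0.542, with a median of 0.24. Such values were thus not particular to the respiratory chain genes. With depth the coefficient had a median of 0.291 and was above 0 for all 75 genes.

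Over clones, edgeR tested each gene against the clone's mitochondrial mRNA level, per doubling, with plate and clone type in the model. Of 88 respiratory chain genes tested, 0 were called, where 3.47% of all genes were called; at an unadjusted p under 0.05 it was 3 of 88 against 12.5%. DESeq2's Wald test called 0 of the 88. On simulated data most calls of this fit over all genes were false, and with the filter of the SN and N comparison, which keeps fewer low genes, 0% of all genes were called; nothing is read from the share over all genes. The median slope was 0.06 for the 88 genes and 0.06 for all genes. The 3 genes were Ndufaf6, an assembly factor, at -1.07 (SE 0.48, edgeR adjusted p 0.301), Cox6a2 at -1.13 (SE 0.55, 0.38) and Cox6c2 at 0.52 (SE 0.26, 0.399). Next were Ndufv1, the flavin subunit of complex I, at 0.51 (SE 0.26, 0.426), Atp5j2, a membrane subunit of ATP synthase, at 0.28 (SE 0.15, 0.457) and Cox7a1 at -1.60 (SE 0.83, 0.436). Cox6a2 had counts in 10 and Cox7a1 in 11 of 62 clones. The 7 genes with the highest medians per cell, not scaled for length, had slopes from 0.03 (Atp5b, SE 0.10) to 0.22 (Cox6a1, SE 0.13, edgeR adjusted p 0.561), with Cox4i1 and Uqcr11 at 0.10 and Cox6c at 0.14.

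The largest difference among these genes lay between plates, a comparison added after the values were seen. The summed level was 11441 to 27967 nuclear CPM in the 20 clones of plate 1 (median 21767), 16416 to 31686 in the 21 of plate 2 (median 25034) and 3323 to 18999 in the 21 of plate 3 (median 12443). Plate 3 lay low in both clone types and overlapped the lower clones of the other plates. Clone 45, counted here on plate 3, has cells on plates 2 and 3. Its red cells, all from plate 2, had 10815.2 nuclear CPM, below the plate 2 clones. Its green cells, most of them from plate 3, had 15109.8. In this clone plate 2 cells were thus not higher, and colour and plate cannot be told apart. Over all exon counts as denominator the medians were 18215, 19778 and 7273.

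**Figure D4:**
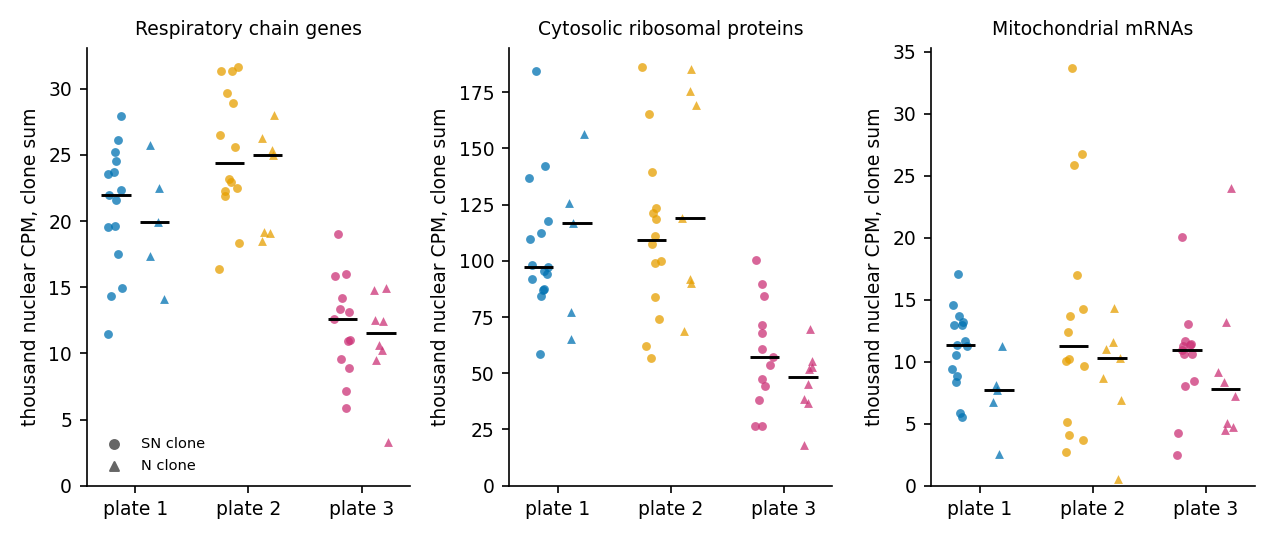
Clone sums in units of 1000 nuclear CPM of respiratory chain genes, cytosolic ribosomal protein genes and mitochondrial mRNAs on plates 1 to 3; each point is a clone (circle SN, triangle N) and each bar the median of its clone type. The first 2 panels are lower on plate 3, with respiratory chain medians of 21767, 25034 and 12443, and the third is not.

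Against the mean of plates 1 and 2, with clone type as a covariate, 56 of 83 respiratory chain genes were lower on plate 3 at an edgeR adjusted p under 0.05 and 0 were higher. Over all genes tested, 4.59% were called lower and 3.07% higher. Plate 3 is 1 plate and the contrast was set after the values were seen. The p-values of this comparison therefore measure only the spread between clones. Short genes with high counts were called lower more often. For other protein-coding genes with a mean of at least 100 normalized CPM, it was 64.3% up to 500 bases of transcript. It was 52.5% from 500 to 750, 47.4% from 750 to 1000 and 30% from 1000 to 2000 bases. Respiratory chain genes at that level had 100%, 88.5%, 87.5% and 75% in the same bins. Above 2000 bases it was 5.25%, against 50% of 2 respiratory chain genes. The median log2 difference, plate 3 minus the others, was -1.16 for the 83 genes and -0.05 for all genes, and 81 of the 83 lay below 0. Scaling by DESeq2 size factors moved the median of all genes by 0.31, to 0.26, and that of the respiratory chain genes to -0.86, with 34 called lower; over all genes 2.84% were then called lower and 6.24% higher. In SN clones alone 22 were called lower, where 1.81% of all genes were (0.851% higher), with a median of -1.18. In N clones alone 6 were called lower, where 0.819% of all genes were (0.65% higher), with a median of -1.11. With equal weight per cell 29 were called lower, where 3.12% of all genes were (2.2% higher). Between plates 2 and 1, 0 of 83 were called, where 0% of all genes were called higher and 0.00839% lower, and the median was 0.23; 10 of the 83 had an unadjusted p under 0.05, against 5.77% of all genes.

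Complex III held the gene with the smallest p. Uqcr11 had 57.04 to 949.7 normalized CPM on plate 1 (median 463.3), 258.6 to 1505 on plate 2 (median 662.1) and 5.762 to 258.9 on plate 3. All 21 plate 3 clones lay below the median of the other 41 (521.7), and 5 of the 41 lay below the highest plate 3 clone. The log2 difference was -1.96 (SE 0.25, edgeR adjusted p 4.59e-08). Uqcr10, Uqcrfs1, Uqcrh and Uqcrq were also lower, at -1.83 to -1.09, while Uqcrc1, Uqcrb and Uqcrc2 did not pass the test.

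In complex IV 12 of 14 genes tested were lower, with a median of -1.39. Cox7c, a small subunit common to all tissues, had 176.7 to 651.6 normalized CPM on plate 1 (median 305), 89.97 to 791.4 on plate 2 (median 500.1) and 40.2 to 284.6 on plate 3 (median 153.9). Its log2 difference was -1.54 (SE 0.20, edgeR adjusted p 5.2e-08), and again all 21 plate 3 clones lay below the median of the rest. Cox6c stood at -1.59, Cox4i1 at -1.33, and Cox5a, Cox5b, Cox6a1, Cox6b1, Cox7a2, Cox7b, Cox8a, Ndufa4 and the pseudogene Cox6c2 were lower as well. Cox6b2 and Cox7a2l, at -1.68 and -0.61, did not pass.

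In ATP synthase 14 of 16 were lower, with a median of -1.07. Atp5j, coupling factor of the peripheral stalk, had 193.3 to 875.1 normalized CPM on plate 1 (median 544), 170.2 to 1371 on plate 2 (median 556.8) and 47.51 to 445.2 on plate 3, where all 21 clones lay below the median of the others. Its log2 difference was -1.45 (SE 0.22, edgeR adjusted p 1.32e-06). The c-ring genes Atp5g1, Atp5g2 and Atp5g3 stood at -1.33, -1.37 and -1.49, and Atp5a1 at -0.82. Atp5b was at -0.49 and did not pass (edgeR adjusted p 0.0925), with medians of 549.3, 667 and 435.7. Atp5l was at 0.89 (0.31).

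Of the 29 accessory subunits of complex I tested, 22 were lower, with Ndufa8 and Ndufb10 at -1.60, Ndufb8 at -1.58 and Ndufa13 at -1.57. The 7 that did not pass ran from Ndufb4 at -1.29 to Ndufa9 at -0.28. Among the 7 core subunits Ndufs8 (-1.54) and Ndufv2 (-1.10) were lower. Ndufs1 stood at -0.06 with medians of 26.42, 22.71 and 33.27 normalized CPM. None of the 8 assembly factors was called (median -0.83), and Ndufaf7 was at 0.67.

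Lists of related genes had unequal shares called lower on plate 3, beside the 4.59% of all genes. These were 83 of 88 cytosolic ribosomal protein genes (median log2 difference -1.31), 7 of 77 of the mitochondrial ribosome (-0.88), 5 of 21 of glycolysis (-0.68), 1 of 4 of complex II (Sdhb, -1.49), 1 of 7 of cytochrome c and the carriers (-0.61), 2 of 35 assembly factors outside the rule (-0.63) and 1 of 15 of the TCA cycle (-0.5). None of 14 biogenesis regulators was called (0.31). Mitochondrial mRNA did not share the pattern, with clone medians of 10889, 10270 and 10628 nuclear CPM on the 3 plates, and of its 7 tested genes mt-Nd5 was higher at 0.95.

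The plates differed in other measures too. The intronic share of the reads of respiratory chain genes had clone medians of 4.19%, 3.84% and 10.2%. Their intronic counts, as CPM of all intronic counts, had medians of 2409, 2221 and 1507. Over all genes the intronic share per cell was 26.42%, 22.87% and 29.23%, and the ID without a symbol took a median of 10.4%, 14.1% and 28% of a cell's exon counts. Median depth was 1522424, 1605366 and 1371353 counts. The summed muscle markers ranged over 0 to 290.5, 0 to 1846 and 0 to 33.39 nuclear CPM per clone, with medians of 13.17, 63.24 and 1.462 and 4, 1 and 5 clones at 0. Those of mesenchyme had medians of 62.42, 76.01 and 9.062 (0.3034 to 514.5, 0.2027 to 1683 and 0 to 236.4). The 3 choroid plexus markers had medians of 0.418, 22.17 and 0, with 7, 6 and 16 clones at 0. The 7 cell cycle genes had medians of 743.2, 745.8 and 359.2 nuclear CPM, and 2 of the 7 were called lower on plate 3. The 4 oligodendrocyte lineage markers had medians of 20.61, 104.7 and 174.5, highest on plate 3, with none of the 3 tested called. Intermediate progenitor markers had medians of 195.7, 211.6 and 200.2, GABAergic markers 40.38, 28.72 and 22.4, and those of endothelium and microglia 1.194, 16.16 and 7.929. Cajal-Retzius markers had 123.3 and 70.13 on plates 1 and 2 and a median between these on plate 3. None of the 10 radial glia markers was called, and 1 of the 10 neuronal markers was called lower. The part of these measures in the plate difference was not tested.

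The difference between plates moved with transcript length over all genes. Among other protein-coding genes its median was -1.02 up to 500 bases, -1 from 500 to 750, -1.02 from 750 to 1000, -0.51 from 1000 to 2000 and 0.15 above 2000 bases. For respiratory chain genes it was -1.34, -1.33, -1.28, -0.98 and -0.52 in the same bins, the last with 4 genes. Their median length is 745 bases, against 3021.5 for the other genes. The ribosomal protein genes stayed between -1.36 and -1.19 in every bin, with 2 genes in the longest. Length was therefore shared with the plate difference, and what plate 3 stands for beyond its number is not given in the labels.

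**Figure D5:**
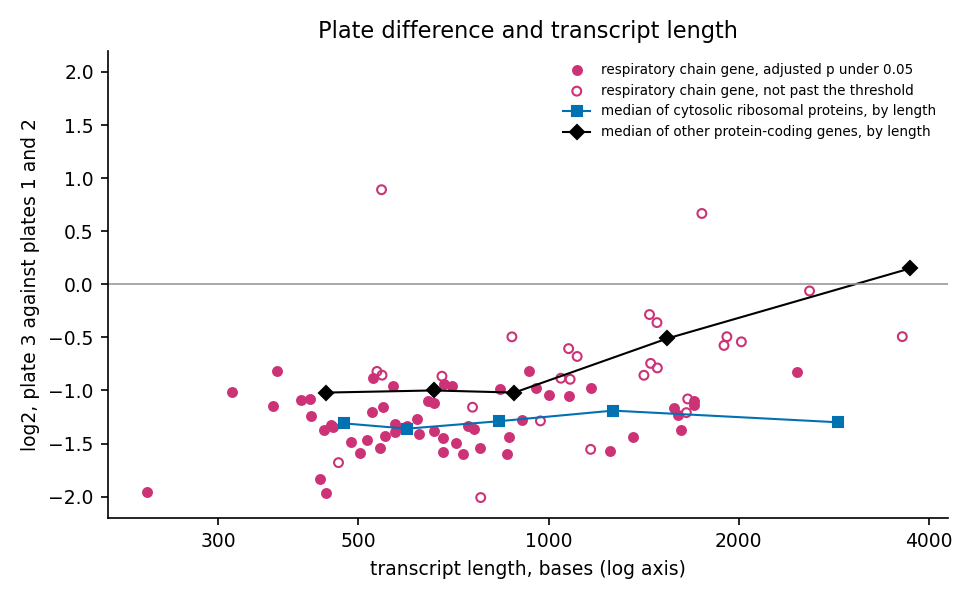
Log2 difference of plate 3 against plates 1 and 2 (vertical axis) by transcript length in bases (log axis) for 83 respiratory chain genes, with medians by length bin of ribosomal protein genes and of other protein-coding genes. Of the 83 respiratory chain genes 81 lie below 0, most of them below the line of the other genes.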

How the data were processed

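Single cells of mouse cerebral organoids were profiled by Smart-seq3, per the labels' protocols. The authors deposited raw exon counts and raw intron counts per gene and cell. The submitters' processing notes name STAR 2.7.9a, R 4.4.0 and GRCm39; how reads were assigned to genes, with which annotation, and whether molecular identifiers served is not given in the sources used here. No doublet caller was run, since each library is a cell drawn by pipette. Exon counts were summed per clone (at least 2 cells with at least 1000 detected genes), or separately for its green and red cells, then paired by a clone term. Sums were tested with edgeR 4.0.16 in R 4.3.3 (quasi-likelihood, TMM, filterByExpr, Benjamini-Hochberg over all genes, threshold 0.05); normalized CPM are TMM-scaled. The error of a log2 difference is its size over the root of F. The fits were tested on simulated data. DESeq2 1.42.0 served for alternatives. Promoters came from RefSeq (GRCm38.p6) and transcript lengths and shared stretches from GENCODE M21. The ribosomal protein list leaves out Rps6k kinases. Genes named with values are, per comparison and direction, the 3 of smallest p, any called gene, per complex the 2 highest and the lowest by median level, and the isoform families. The gene lists were chosen with earlier results of these data known. The plate comparison and the second filter in the mitochondrial fit were added after the values were seen, and in the former called genes are given mostly by name. The values of 1 core subunit of complex I are not reported here. Neuron and radial glia scores use log2 of nuclear CPM plus 1.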

Additional observations from a re-analysis of the deposited data

Results flagged for a closer look

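The 3 libraries that the labels put in no clone entered no comparison. In 2 of them respiratory chain genes were counted, at 25733.8 nuclear CPM in the first and 17298.7 in the second, with 58 and 84 of the genes detected. The third held 2001 nuclear counts and none from these genes. Among the 8 N clones of plate 3 the lowest, at 3323 nuclear CPM, stood apart from the next at 9535 and the highest at 14915. Its gap was 0.536 of the range, past Dixon's critical value for 8 samples. The value of this clone rests on 2 cells, as does that of the clone at 14764. Values this far apart also arise by chance in about 5% of groups, and 4 groups were examined.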

How the results depend on the processing

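Across the alternatives run, 48 results were classed as the same, 4 lost calls by more than 1.5 times and 3 gained them. For a test, the same means 0 calls in both settings or numbers of calls within 1.5 times of each other. The correlation and the summed levels have no threshold. There it means an r inside the confidence interval of the main value, or a median that moved by less than the standard deviation over cells. The interval takes cells as independent, which cells of a clone are not, and the limit for medians is wide. For these results the same is a loose description and not a test. Without the filter on low counts, 2 genes were called between SN and N clones, Ndufa4l2 at -6.08 and Cox8b at -2.55, and 1 along mitochondrial mRNA, Cox7b2 at 0.72; these were counted in 8, 6 and 3 cells, and that setting called 17.4% and 9.38% of all genes. Without the plate term 1 gene, Cox7a1, was called along mitochondrial mRNA at -2.61 (edgeR adjusted p 0.0128). It had counts in 11 of 62 clones, and 66.3% of its counts lay in 1 cell. With the plate term, most calls of this fit on simulated data were false, and nothing is read from this call. The plate comparison called 34 genes with DESeq2 size factors, 29 with equal weight per cell, 22 when only SN clones entered and 6 when only N clones did, in place of 56; all of these were among the 56. Named genes turned direction in 13 of the values recomputed. Between SN and N clones these were Ndufs1 with equal weight per cell (-0.01), Ndufaf7 (-0.44), Atp5d (0.15), Atp5c1 (0.04) and Ndufaf5 (0.25) on plate 1 alone, Ndufaf5 on plate 2 alone (0.3), Atp5d in clones of size 4 to 6 (0.54), and Atp5d (0.32) and Atp5c1 (0.02) with depth as a term. Along mitochondrial mRNA in N clones alone they were Cox6a2 (0.26) and Cox7a1 (2.61). Between plates Ndufaf7 turned with equal weight per cell (-0.35) and in N clones alone (-0.49). The cause was not tested. Green and red cells are paired by clone; without the clone as a block 0 genes were called and their median was 0.08. DESeq2's Wald test was not run for colour. Low counts kept genes out of the tests: 83 of the 94 passed the filter between SN and N clones and 78 between green and red cells.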
